A study of Saccharomyces cerevisiae with 14 samples.

Results

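The branched-chain amino acid synthesis genes followed here are 10 budding yeast genes, chosen by name: ILV2, ILV6, ILV5, ILV3, LEU4, LEU9, LEU1, BAT1, BAT2 and LEU3. All 10 were measured, each by 1 probe set that the platform annotation pairs with that gene alone, out of 5449 genes measured in all. No member had a probe set of the kind marked as matching several genes, so LEU4 and LEU9, and BAT1 and BAT2, were read by separate probe sets.

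The cells were Saccharomyces cerevisiae YSBN6, a wild-type strain, cultured at 30 °C in fermentors with glucose (20 g/L) as carbon source and glutamine (1 g/L) as nitrogen source. Rapamycin, a macrolide that binds Fpr1 and inhibits the kinase complex TORC1, was pulsed to 400 µg/L during exponential growth. Total RNA was hybridised to 14 Affymetrix yeast arrays. Separate cultures, 3 in all and named BY005, BY006 and BY007, were each sampled at steady state, 10 min before the pulse, and at 7 and 24 min after it. BY005 alone was also sampled at 3, 10, 14, 56 and 120 min. Every culture received rapamycin, so the passage of time in batch culture and the drug cannot be told apart.

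Valine, isoleucine and leucine are made through one shared set of mitochondrial enzymes. Acetohydroxyacid synthase (catalytic subunit Ilv2, regulatory subunit Ilv6) starts the route, and Ilv5 and Ilv3 carry it to the branched-chain keto acids. Leucine needs further steps: isopropylmalate synthase (Leu4 and Leu9) condenses the valine keto acid with acetyl-CoA, Oac1 carries the product out of the mitochondrion, and Leu1 and Leu2 act on it in the cytosol. The aminotransferases Bat1 (mitochondrial) and Bat2 (cytosolic) add the amino group in synthesis and remove it in breakdown. Leu3 is a transcription factor of the pathway that isopropylmalate turns into an activator. Leu4 is inhibited by leucine.

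Levels are the authors' RMA intensities on a log2 scale, and a change is a difference of log2 values. All members lay well above the background of fission yeast probe sets, whose 95th percentile was 5.77, with the lowest member value at 8.65 (LEU3 at 14 min). ILV5 was the member within 1 log2 unit of the brightest gene at steady state (14.84), where differences can be understated. The SD among 3 replicate arrays ran from 0.0022 to 0.138 at steady state, from 0.0237 to 0.192 at 7 min and from 0.0157 to 0.162 at 24 min over the members, and at each of these times BAT2 had the largest. Levels of different probe sets are not compared. An array reads shares of the RNA pool, so a smaller share and less RNA per cell cannot be told apart.

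At 24 min after rapamycin the genes of branched-chain amino acid synthesis had split. Of the 10 members, 7 fell (LEU9, ILV5, LEU3, BAT1, LEU1, ILV2 and ILV3), 2 rose (BAT2 and LEU4), and ILV6 did not pass the test. The threshold was a limma p of 0.05 after Benjamini-Hochberg adjustment over all genes. The background was broad, since 30.4% of all genes fell and 44.5% rose in the same comparison. The members' median change was -0.56, against 0.11 for all genes. BAT2 ranked 109th and LEU4 2099th among 5449 genes by rise, and LEU9 224th by fall. With each array scaled by its hybridisation controls, which moved every gene up by 1.01, the changes of ILV2, ILV3, LEU1 and BAT1 turned positive. Of the members BAT2 alone passed under this scaling, whose median standard error was 0.845 per gene. The share of all genes that passed under it was not counted.

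**Figure D1:**
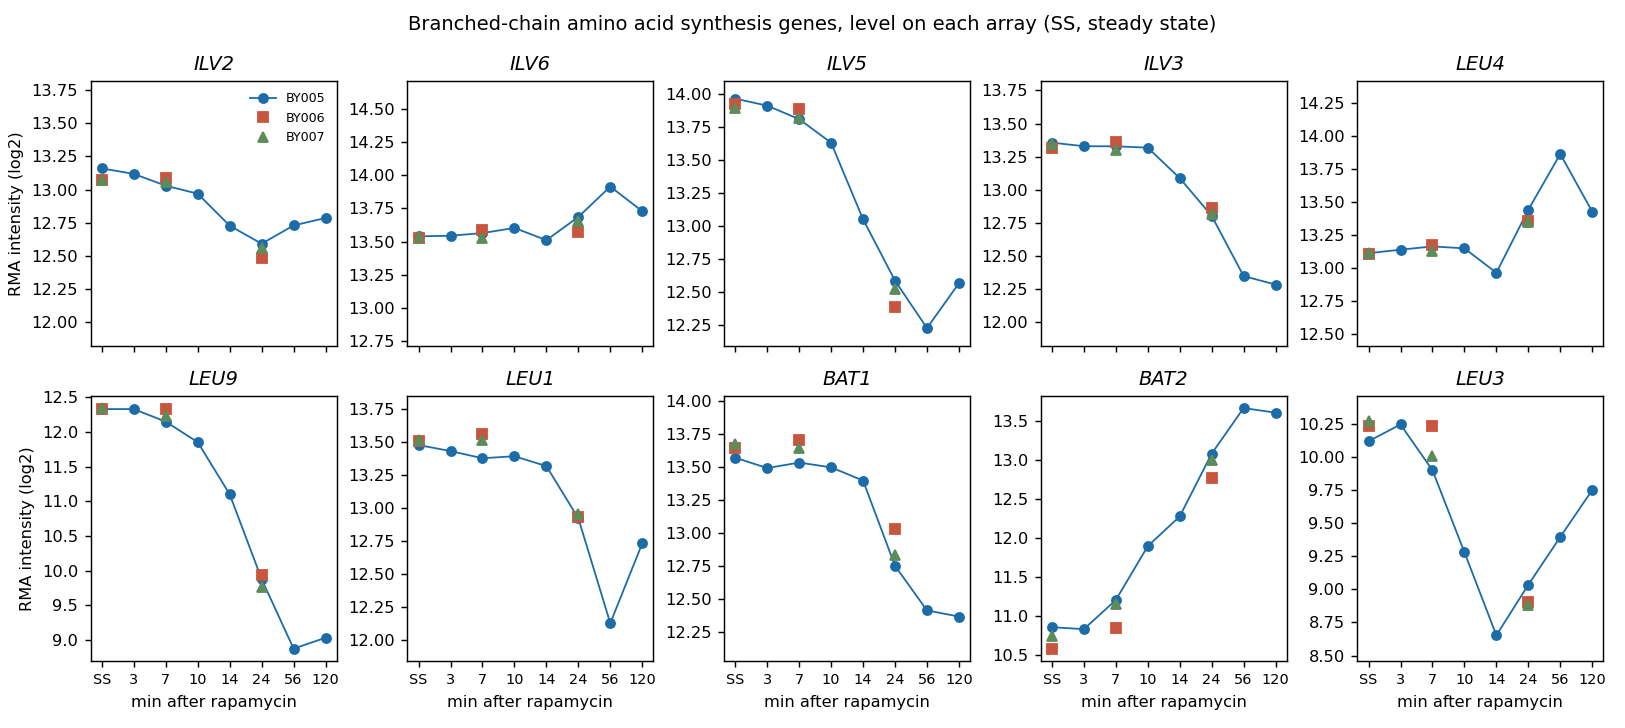
Level of each member on each of the 14 arrays (log2 RMA intensity, vertical) against sampling time (horizontal, evenly spaced and not to scale; SS is steady state). Symbols mark the cultures and the line joins BY005, where LEU9 fell to 8.88 at 56 min and BAT2 reached 13.67, while LEU3 was lowest at 14 min.

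Acetohydroxyacid synthase is built from a catalytic and a regulatory subunit, and their genes differed. ILV2, for the catalytic subunit, stood at 12.59, 12.48 and 12.56 at 24 min in BY005, BY006 and BY007, against 13.16, 13.07 and 13.07 at steady state. The groups did not overlap, and ILV2 fell by 0.56 ± 0.05 (log2 change ± the fit's standard error, limma adjusted p = 9.4e-06). ILV6, for the regulatory subunit, read 13.69, 13.57 and 13.65 at 24 min, against 13.54, 13.52 and 13.53 at steady state. Its change of 0.10 ± 0.05 missed the threshold (limma adjusted p = 0.065) and lay close to the median of 0.11 over all genes. The ILV6 groups did not overlap, but the share of all genes whose groups did not overlap was not counted, here or below. With the BY006 array at 24 min left out the ILV6 change was 0.14 and passed (limma adjusted p = 0.024). It passed with no other single array left out, and was then as low as 0.08. At 7 min ILV2 had read 13.03, 13.08 and 13.06 in BY005, BY006 and BY007, close to steady state, and in BY005 it was lowest at 24 min and stood at 12.73 and 12.79 at 56 and 120 min. In the single array at 56 min ILV6 was 0.38 ± 0.06 above steady state (limma adjusted p = 0.00064) and ILV2 lay 0.37 below, at -0.37 ± 0.07 (limma adjusted p = 0.0012). The difference between the 2 subunits was noticed in these values and was not tested. ILV6 turned to -0.56 at 56 min when the arrays were scaled by hybridisation controls.

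The middle steps fell by unequal amounts. ILV5, for acetohydroxyacid reductoisomerase, which is also known for a part in keeping mitochondrial DNA, stood at 12.59, 12.39 and 12.52 at 24 min in BY005, BY006 and BY007, against 13.96, 13.92 and 13.89 at steady state. It fell 2.69-fold (-1.43 ± 0.06, limma adjusted p = 1.4e-07), and the lowest steady-state array lay more than 1 log2 unit above the highest 24 min array. ILV3, for dihydroxyacid dehydratase, an iron-sulfur enzyme, read 12.80, 12.86 and 12.82 at 24 min, against 13.36, 13.32 and 13.34 at steady state. It fell 1.43-fold (-0.51 ± 0.04, limma adjusted p = 6e-06). In BY005 ILV5 stood at 13.91, 13.81, 13.63 and 13.05 at 3, 7, 10 and 14 min, and at 12.23 and 12.57 at 56 and 120 min. Its lowest point was thus at 56 min, 3.25-fold below steady state (-1.70 ± 0.08). ILV3 stood at 13.33, 13.33, 13.32 and 13.09 at 3, 7, 10 and 14 min, and at 12.35 and 12.28 at 56 and 120 min, so it was lowest in the last array. At 120 min it was 0.54 lower than at 24 min (-0.54 ± 0.06, limma adjusted p = 0.00016, 1 against 3 arrays), while ILV5 did not pass in that comparison (0.07 ± 0.08, limma adjusted p = 0.53).

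The 2 isopropylmalate synthase genes moved apart. LEU9 was at 9.88, 9.93 and 9.76 at 24 min in BY005, BY006 and BY007, against 12.33, 12.33 and 12.34 at steady state. It fell 5.56-fold (-2.48 ± 0.06, limma adjusted p = 5.1e-08), by amounts that differed among the cultures by less than 0.2. LEU4 was at 13.44, 13.36 and 13.35 at 24 min, against 13.11, 13.11 and 13.11 at steady state. It rose 1.21-fold (0.27 ± 0.04, limma adjusted p = 0.00038). Its groups did not overlap either, but the share of all genes with such groups was not counted. The rise of LEU4 was small beside the fall of LEU9 and ranked 2099th of 5449 genes, when 44.5% of all genes rose.

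In BY005 the split widened after 24 min. LEU9 stood at 12.33 at steady state, then at 12.33, 12.15, 11.85, 11.10, 9.88, 8.88 and 9.03 at 3, 7, 10 and 14 min and at 24, 56 and 120 min. At 56 min it was 10.99-fold below steady state (-3.46 ± 0.09, limma adjusted p = 8.5e-09). LEU4 stood at 13.11 at steady state and at 13.14, 13.16, 13.15, 12.96, 13.44, 13.86 and 13.43 at the same times. The LEU4 series dipped at 14 min (-0.15 ± 0.06, limma adjusted p = 0.07), and this dip passed with quantile normalization of the genes alone (-0.21, limma adjusted p = 0.0095). Its highest point came at 56 min, 1.68-fold above steady state (0.75 ± 0.06, limma adjusted p = 8.1e-06), which turned to -0.19 with scaling by hybridisation controls.

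The log2 ratio of LEU4 to LEU9 within an array, which no scaling of a whole array can move, was tested directly. Set against its steady-state mean, the ratio was higher by 2.79, 2.65 and 2.81 at 24 min in BY005, BY006 and BY007, against 0.01, 0.00 and -0.01 on the steady-state arrays. The change was 2.75 ± 0.08, a 6.72-fold shift in favour of LEU4 (limma adjusted p = 8.3e-11 over the ratios of 5448 genes to LEU9). With the ratio's own spread in place of one shared across genes the adjusted p was 1.1e-07, with an interval of 2.61 to 2.89. A rise against LEU9 was common, at 95.4% of those genes, and 3.52% fell against it. An exact permutation test of this one ratio gave p = 0.1, two-sided, the smallest that 3 against 3 arrays allow. At 7 min the change was 0.14 ± 0.08 (limma adjusted p = 0.24), in a comparison where 0.716% of the genes rose against LEU9 and 0.0184% fell. With the ratio's own spread the adjusted p at 7 min was 0.21, with an interval of 0.0028 to 0.29. The exact permutation test there also gave p = 0.1, two-sided. In the single arrays of BY005 the ratio was 0.52, 1.09, 4.21 and 3.62 above the steady-state mean at 10, 14, 56 and 120 min.

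**Figure D2:**
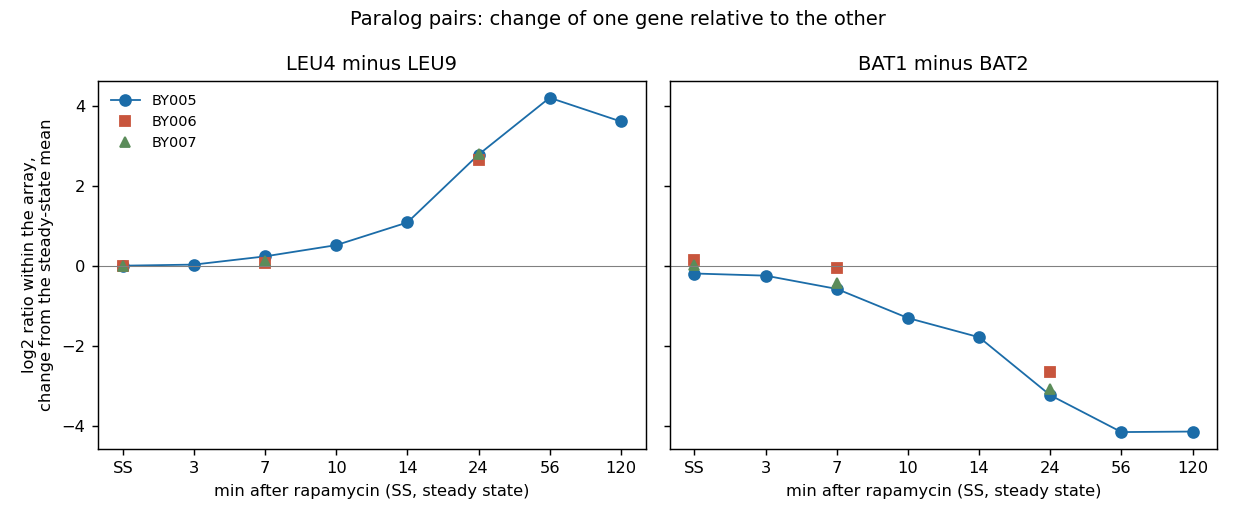
Change of the within-array log2 ratio of LEU4 to LEU9 (left) and of BAT1 to BAT2 (right) from its steady-state mean (vertical), by sampling time (horizontal, evenly spaced and not to scale). Each symbol is 1 array and the line joins BY005. The 24 min arrays lie between 2.65 and 2.81 on the left and between -3.23 and -2.65 on the right.

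The cytosolic end of the leucine branch fell as well. LEU1, for the iron-sulfur enzyme isopropylmalate isomerase, read 12.92, 12.93 and 12.95 at 24 min in BY005, BY006 and BY007, against 13.48, 13.51 and 13.51 at steady state. The fall was 1.48-fold (-0.57 ± 0.05, limma adjusted p = 1.7e-05). LEU1 was lowest in the 56 min array of BY005, at 12.13, which is 2.58-fold below steady state (-1.37 ± 0.08, limma adjusted p = 9.7e-07), and it stood at 12.73 in the 120 min array. Until 14 min it had stayed between 13.32 and 13.56 in all cultures, within 0.2 of its steady-state mean.

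The 2 aminotransferase genes went opposite ways. BAT2, for the cytosolic enzyme, stood at 13.08, 12.77 and 13.00 at 24 min in BY005, BY006 and BY007, against 10.85, 10.58 and 10.73 at steady state. It rose 4.68-fold (2.23 ± 0.12, limma adjusted p = 5.6e-07). BAT1, for the mitochondrial enzyme, stood at 12.75, 13.03 and 12.83 at 24 min, against 13.57, 13.64 and 13.67 at steady state. It fell 1.69-fold (-0.76 ± 0.08, limma adjusted p = 2.8e-05). For both genes the groups did not overlap, but the share of all genes with such groups was not counted. In this comparison 44.5% of all genes rose and 30.4% fell. BY006 showed the smallest change in BAT1, and its BAT2 level was the lowest of the 3 cultures at each shared time.

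Over time in BY005, BAT2 stood at 10.85 at steady state, then at 10.83, 11.20, 11.89, 12.27, 13.08, 13.67 and 13.61 at 3, 7, 10 and 14 min and at 24, 56 and 120 min. At 56 min it was 7.71-fold above steady state (2.95 ± 0.17, limma adjusted p = 1.1e-06) and ranked 51st by rise. BAT1 stood at 13.57, then at 13.49, 13.53, 13.50, 13.40, 12.75, 12.41 and 12.37 at those times. It was still within 0.25 of the steady-state mean at 14 min (-0.23 ± 0.11, limma adjusted p = 0.11), when BAT2 was already 2.94-fold higher (1.55 ± 0.17, limma adjusted p = 0.00011).

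Set against its steady-state mean, the within-array log2 ratio of BAT1 to BAT2 was -3.23, -2.65 and -3.07 at 24 min in BY005, BY006 and BY007, against -0.19, 0.16 and 0.03 on the steady-state arrays. The change was -2.98 ± 0.17, a 7.91-fold shift in favour of BAT2. Its limma adjusted p was 1.3e-20 over the ratios of 5448 genes to BAT2, of which 97.1% fell and 1.16% rose. All these ratios share the noise of BAT2, which gave that fit a prior of 38.41 degrees of freedom and makes the p too small. With the ratio's own spread on 6 degrees of freedom the adjusted p was 1.3e-05 and the interval -3.49 to -2.47. The exact permutation test gave p = 0.1, two-sided, again the smallest possible. In the single arrays of BY005 the ratio stood at -1.30, -1.78, -4.16 and -4.14 relative to that mean at 10, 14, 56 and 120 min.

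The gene of the pathway's own transcription factor fell early and partly came back. LEU3 stood at 9.03, 8.90 and 8.88 at 24 min in BY005, BY006 and BY007, against 10.12, 10.23 and 10.27 at steady state, a 2.41-fold fall (-1.27 ± 0.09, limma adjusted p = 2.6e-06). In BY005 it stood at 10.12 at steady state, then at 10.25, 9.90, 9.28, 8.65, 9.03, 9.40 and 9.75 at 3, 7, 10 and 14 min and at 24, 56 and 120 min. The lowest value, at 14 min, was 2.94-fold below steady state (-1.55 ± 0.13, limma adjusted p = 3.2e-05). At 120 min LEU3 was 1.75-fold above its 24 min level (0.81 ± 0.13, limma adjusted p = 0.0011, 1 against 3 arrays), and still 0.46 below steady state (-0.46 ± 0.13, limma adjusted p = 0.011). Scaling by hybridisation controls turned the difference between 120 and 24 min to -0.50.

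**Figure D3:**
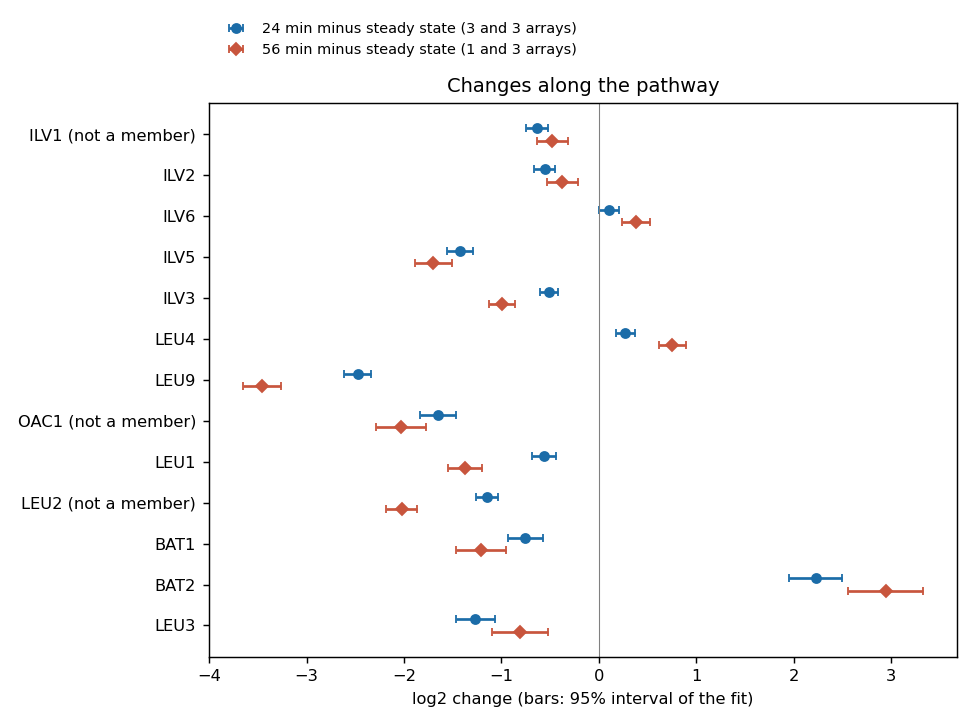
Log2 change from steady state (horizontal) of the members and of ILV1, OAC1 and LEU2, listed in the order of the pathway (vertical). Circles are 24 min, diamonds the single array at 56 min, and bars the fit's 95% interval. BAT2 lies at 2.23 and LEU9 at -2.48 at 24 min, and LEU4 at 0.27.

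The order of events was read from the separate times. At 3 min none of the members passed, as 0% of all genes did. Their changes lay between -0.14 and 0.11, and none had an unadjusted p under 0.05 (limma). At 7 min, with 3 arrays, 0 of 10 members passed (limma), when 0.826% of all genes rose and 0.0734% fell. The member with an unadjusted p under 0.05 was BAT2, with 11.20, 10.85 and 11.15 at 7 min in BY005, BY006 and BY007, against 10.85, 10.58 and 10.73 at steady state. These groups overlapped, but each culture was higher than its own steady state, by 0.35, 0.27 and 0.42. BAT2's change of 0.35 ± 0.12 (limma adjusted p = 0.16) passed with the culture as a block (limma adjusted p = 0.023), and again once the BY006 array at 7 min was left out (0.46, limma adjusted p = 0.032). The ratio of BAT1 to BAT2, -0.35 ± 0.17 (limma adjusted p = 0.11, with 6.3% of genes falling against BAT2 and 0.991% rising), likewise passed with the block (limma adjusted p = 0.0048) and without that array (-0.50, limma adjusted p = 0.017). Those p-values come from the fit whose ratios share the noise of BAT2. With the ratio's own spread the adjusted p was 0.21, with an interval of -0.86 to 0.16, and the exact permutation test gave p = 0.2, two-sided. The remaining members lay between -0.16 (LEU3) and 0.04 (LEU4) at 7 min. LEU3 there read -0.25 without the 7 min array of BY006 and -0.0852 without that of BY005.

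Between 24 and 7 min the same split appeared: 7 members fell and 2 rose (limma), against 30.8% and 39.5% of all genes. This comparison uses the same 24 min arrays, and no member had passed at 7 min, so it is not a separate check of the split. BAT2 was 3.68-fold higher at 24 min than at 7 min (1.88 ± 0.12, limma adjusted p = 2e-06) and LEU9 5.19-fold lower (-2.38 ± 0.06, limma adjusted p = 6.9e-08). ILV6 did not pass (0.08 ± 0.05, limma adjusted p = 0.16).

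The single arrays of BY005 at 10 and 14 min gave further calls. At 10 min 1 member rose and 3 fell (limma), when 26.6% of all genes rose and 15.5% fell. They were BAT2, 2.25-fold higher (1.17 ± 0.17, limma adjusted p = 0.0011), LEU3 (-0.93 ± 0.13, limma adjusted p = 0.00096), LEU9 (-0.48 ± 0.09, limma adjusted p = 0.0028) and ILV5 (-0.30 ± 0.08, limma adjusted p = 0.02). ILV2 did not pass at 10 min (-0.13, limma adjusted p = 0.15), but did with quantile normalization of the genes alone (-0.21, limma adjusted p = 0.021). At 14 min ILV2 (-0.38 ± 0.07) and ILV3 (-0.25 ± 0.06) had joined the falls, which made 5, beside 1 rise, with 28.2% and 27.3% of all genes. LEU1 (-0.18 ± 0.08, limma adjusted p = 0.072) and BAT1 had not passed by then. The lone arrays were assumed to vary like the replicated times, and they have no replicate check.

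As a share of the change that BY005 showed at 24 min from its own steady-state array, LEU3 had covered 77.3% at 10 min. BAT2 had covered 46.7%, ILV2 33.5%, ILV5 24.2%, LEU9 19.5%, LEU1 15.3%, BAT1 8.94% and ILV3 6.89%. At 14 min the shares were 135% for LEU3, 76.1% for ILV2, 66.3% for ILV5, 63.8% for BAT2, 50.1% for LEU9, 48.4% for ILV3, 28.8% for LEU1 and 21.2% for BAT1. LEU3 thus came first at both times and overshot its 24 min level, and BAT1 and LEU1 were among the last 3 at 10 min and the last 2 at 14 min. With the mean of the 3 steady-state arrays as baseline the shares at 10 min were 14.9% for BAT1, 18.8% for LEU1, 3.96% for ILV3 and 26.1% for ILV2, and these places in the order held at both times. None of these 4 genes had passed at 10 min. LEU4 and ILV6 are left out because their change at 24 min was under 0.5.

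In the single late arrays all 10 members differed from steady state, 3 higher (BAT2, LEU4, ILV6) and 7 lower (limma). At 56 min 45.3% of all genes rose and 25.7% fell, and at 120 min 41.4% and 25.3%. Scaled by hybridisation controls, 1 member passed at 56 min and 0 at 120 min (limma). That scaling had a median standard error of 1.20 per gene at both times, and the share of all genes that passed under it was not counted. ILV6 at 120 min (0.20 ± 0.06, limma adjusted p = 0.023) missed the threshold with the culture as a block (limma adjusted p = 0.058), with median centring (0.11, limma adjusted p = 0.17) and without the steady-state array of BY006 (limma adjusted p = 0.054), and turned to -0.10 with scaling by hybridisation controls.

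Against 24 min, 3 members were higher and 3 lower at 120 min (limma), with 28.4% and 18.2% of all genes. Higher were LEU3, BAT2 (0.66 ± 0.17, limma adjusted p = 0.013) and ILV2 (0.24 ± 0.07, limma adjusted p = 0.02). Lower were LEU9 (-0.83 ± 0.09, limma adjusted p = 0.00015), ILV3 and BAT1 (-0.50 ± 0.11, limma adjusted p = 0.0065). ILV2 did not pass with median centring (limma adjusted p = 0.092) or with only these groups in the fit (limma adjusted p = 0.091). LEU1, at -0.20 (limma adjusted p = 0.059), did pass with median centring (-0.28, limma adjusted p = 0.026), which left 2 members higher and 4 lower. With scaling by hybridisation controls 0 members passed (limma) and the rises turned negative. The median standard error per gene was then 1.20, and the share of all genes that passed was not counted.

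Genes of the same pathway outside the 10 members all fell at 24 min. ILV1, threonine deaminase, which opens the isoleucine branch, stood at 12.25, 12.20 and 12.22 in BY005, BY006 and BY007, against 12.94, 12.79 and 12.84 at steady state (-0.63 ± 0.05, limma adjusted p = 5.2e-06). OAC1, the carrier that exports isopropylmalate, stood at 10.46, 10.55 and 10.51, against 12.18, 12.11 and 12.18 (-1.65 ± 0.08, limma adjusted p = 3.2e-07). LEU2, isopropylmalate dehydrogenase, stood at 11.80, 11.90 and 11.85, against 13.01, 13.05 and 12.95 (-1.15 ± 0.05, limma adjusted p = 1.9e-07). OAC1 was early, with 63.7% of its BY005 change at 10 min, and LEU2 late, with 3.9%. Of 4 genes listed as Leu3 targets outside the members, 3 fell at 24 min: LEU2, OAC1 and BAP2, a branched-chain amino acid permease (-3.08 ± 0.16, limma adjusted p = 4.6e-07). The remaining one, GDH1, for the NADP-dependent glutamate dehydrogenase, rose (0.65 ± 0.06, limma adjusted p = 1.1e-05). Of all genes, 30.4% fell and 44.5% rose in this comparison. The pathway genes outside the members had a median of -1.15 and these targets one of -1.40.

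**Figure D4:**
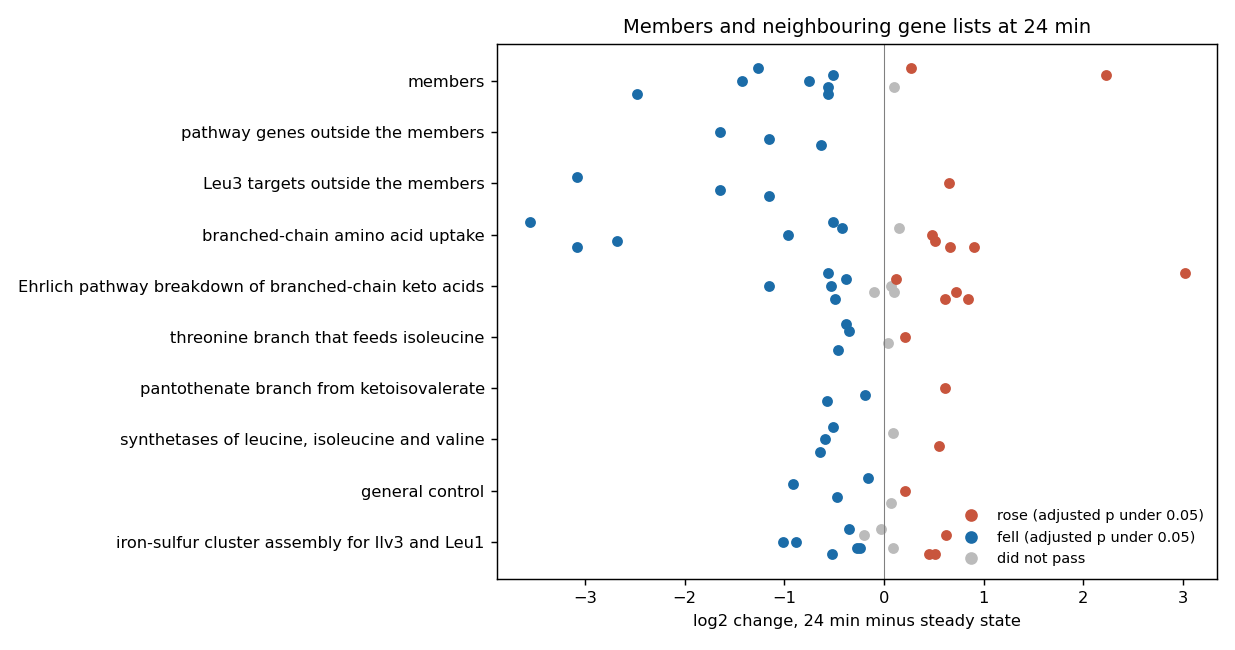
Log2 change at 24 min against steady state (horizontal) of each measured gene in the members and in 9 lists around the pathway (vertical; the vertical spread within a list has no meaning). Colours mark genes that rose, fell or did not pass. Of the 10 members 7 fell and 2 rose, and of 11 uptake genes 6 fell and 4 rose.

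Around the pathway, uptake genes were mixed. Of 11 genes for branched-chain amino acid uptake and its control, 6 fell and 4 rose at 24 min (limma, median -0.42), when 30.4% of all genes fell and 44.5% rose. The largest changes were falls of the permease genes GNP1 (-3.55 ± 0.06), BAP2, and BAP3 (-2.68 ± 0.30). BAP3 read 6.60, 6.21 and 6.25 at 24 min in BY005, BY006 and BY007, not far above the background of 5.77. At 7 min 1 of the 11 passed, when 0.826% of all genes rose and 0.0734% fell. It was the broad amino acid permease gene AGP1, which rose (0.43 ± 0.06, limma adjusted p = 0.023). By 24 min AGP1 was among the 6 falls (-0.42 ± 0.06, limma adjusted p = 0.00031). For the Ehrlich pathway, which turns branched-chain keto acids into fusel alcohols and esters, 5 of 13 rose and 5 fell at 24 min (median 0.07), shares close to the 44.5% and 30.4% of all genes. The pyruvate decarboxylase gene PDC6 was 8.11-fold higher (3.02 ± 0.20), the alcohol acetyltransferase gene ATF2 lower (-1.16 ± 0.12), and ARO10, a decarboxylase of such keto acids, higher (0.85 ± 0.07).

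Genes of the routes that feed or use the pathway were also read at 24 min, where 30.4% of all genes fell and 44.5% rose. In the threonine branch, which supplies isoleucine, the aspartate kinase gene HOM3 (-0.46), the homoserine kinase gene THR1 (-0.35) and the threonine synthase gene THR4 (-0.38) fell at 24 min. The homoserine dehydrogenase gene HOM6 rose (0.22) and HOM2, at 0.04, did not pass. In pantothenate synthesis, which starts from the valine keto acid, ECM31 (-0.58) and PAN6 (-0.19) fell and PAN5 rose (0.61). Of the tRNA synthetases for these amino acids, 3 fell: CDC60 for cytosolic leucine (-0.64), ILS1 for cytosolic isoleucine (-0.59) and VAS1 for valine (-0.52). NAM2, for mitochondrial leucine, rose (0.55), and ISM1, for mitochondrial isoleucine, did not pass (0.09).

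GCN4 encodes the general activator of amino acid synthesis genes, which is controlled mainly in translation. Its transcript stood 0.07 ± 0.05 above steady state at 24 min and did not pass (limma adjusted p = 0.25). Of its upstream factors, GCN1 (-0.47), GCN20 (-0.16) and GCN3 (-0.92) fell and GCN2, the kinase, rose (0.22, limma adjusted p = 0.04). From its own steady state GCN2 changed by 0.40, -0.04 and 0.29 in BY005, BY006 and BY007, so BY006 did not share the rise. Of 12 genes for assembling iron-sulfur clusters, which Ilv3 and Leu1 carry, 6 fell and 3 rose (median -0.22), when 30.4% of all genes fell and 44.5% rose. The largest changes were in ATM1, a mitochondrial exporter (-1.01 ± 0.07), the scaffold gene ISU2 (-0.88 ± 0.05) and NBP35, of the cytosolic machinery (0.62 ± 0.08). With scaling by hybridisation controls the falls at 24 min of less than 1.01 turn positive.

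The genes whose log2 values ran most like each paralog over the 14 arrays were found among 5309 genes with a mean above background. For LEU4 they were SSK22 (Pearson's r = 0.980), a kinase gene of the osmotic stress pathway, AAD10 (0.977) and the uncharacterised YOR238W (0.974). For LEU9 they were the fatty acid elongase gene ELO3 (0.997), the methionyl-tRNA synthetase gene MES1 (0.997) and ADE1 (0.994) of purine synthesis. For BAT1 they were the transketolase gene TKL1 (0.989), the serine hydroxymethyltransferase gene SHM2 (0.986) and the ribosomal protein gene RPS7B (0.982). For BAT2 they were TSA2 (0.997), a thioredoxin peroxidase gene, the alanine transaminase gene ALT1 (0.997) and LSC2 (0.996), of succinyl-CoA ligase. These correlations describe 14 arrays that share a time course, 8 of them from BY005, and no test was made of them. A likeness in shape need not carry over to size: ELO3 fell by 1.03 at 24 min, against 2.48 for LEU9. The sizes were closer for TSA2, which rose by 2.68 at 24 min, against 2.23 for BAT2.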

How the data were processed

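The authors deposited intensities made by RMA, which corrects background, quantile-normalizes the arrays and summarises each probe set. The submitters' processing notes name affy and R 2.10.0. The values of the 14 columns were on a linear scale, so log2 was taken with no pseudocount. Probe sets with 1 budding yeast gene in the platform annotation (5498 of 10928) gave 5449 genes, with probe sets of a gene averaged. A RefSeq gene table gave newer symbols for 12 of them. The 1746 fission yeast probe sets gave the background. Scanner files, scan dates and sequences were not used here, so the planned description of promoter motifs and protein identity was not made. The number of arrays limits the precision.

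limma 3.58.1 (lmFit, eBayes) in R 4.3.3 was fitted to all genes with 8 time groups over the 14 arrays and without a block, on 6 residual degrees of freedom, after tests on simulated arrays with known changes. The planned paralog test fitted the log2 ratio of every gene to LEU9 or to BAT2. Its version with the ratio's own spread was added after the data were seen. Intervals are 95%. Samples of one name come from one culture, which pairs them. Deviations from the group means correlated within a culture with r from -0.164 to 0.528. Alternatives were a culture block, 3 other scalings, a filter on dim genes, the brightest probe set, only the groups compared, each replicate left out, and BY005's own baseline. All members were named. From lists of 5 or fewer genes all were named, and from longer lists the 3 largest called changes at 24 min. AGP1, outside that rule, was named after its value was seen. Members and lists were chosen with earlier results of these data known.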

Additional observations from a re-analysis of the deposited data

How the results depend on the processing

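The member counts and both paralog ratios kept their direction at 24 min under every alternative run except scaling by hybridisation controls, which the ratios cannot feel. Those controls averaged 8.62 to 10.46 on the 24 min arrays and 9.56 to 11.76 at steady state, so their scaling carried a median standard error of 0.845 per gene at 24 min. Under it the number of members that passed was 0 at 10 and 14 min (4 and 6 in the reported fit), 1 at 24 min (9), 1 at 56 min (10), 0 at 120 min (10), 1 between 24 and 7 min (9) and 0 between 120 and 24 min (6). The share of all genes that passed under it was not counted for any comparison. Members turned sign under it as follows. At 7 min ILV2 read 0.18, ILV5 0.13, ILV3 0.21, LEU9 0.12, LEU1 0.21, BAT1 0.22 and LEU3 0.0649. At 10 min ILV6 read -0.48 and LEU4 -0.51. At 24 min ILV2 read 0.46, ILV3 0.50, LEU1 0.45 and BAT1 0.26, and between 24 and 7 min 0.28, 0.29, 0.24 and 0.0367. At 56 min ILV6 read -0.56 and LEU4 -0.19, and at 120 min ILV6 -0.10. Between 120 and 24 min ILV2 read -1.07, ILV6 -1.22, ILV5 -1.25, LEU4 -1.27, BAT2 -0.66 and LEU3 -0.50. Quantile normalization of the genes alone turned BAT1 at 7 min to 0.002 and LEU4 at 10 min to -0.051. Median centring turned ILV6 (-0.0196) and LEU4 (-0.0019) at 7 min, LEU4 at 10 min (-0.0040), ILV6 at 14 min (0.0498), and ILV5 (-0.0063) and LEU4 (-0.0315) between 120 and 24 min, none of which had passed. The cause of these turns was not tested.

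With the culture as a replicate block 1 member passed at 7 min, BAT2, where none did without it, and the BAT1 to BAT2 ratio of -0.35 passed there too. The shares of all genes that passed with the block, or with a replicate left out, were not counted. The block ended the call of ILV6 at 120 min and changed no other call. Over the fits that each left out 1 replicate, 0 to 1 member passed at 7 min, the ratio of BAT1 to BAT2 at 7 min ran from -0.50 to -0.24, and 3 members that had not passed at 7 min crossed 0, BAT1 between -0.0395 and 0.0455, LEU1 between -0.0547 and 0.0388 and ILV3 between -0.0265 and 0.0047. The exact permutation tests of both ratios at 24 min (2.75 and -2.98) cannot pass with 3 against 3 arrays. With BY005's own steady-state array as baseline 24 values moved by more than the steady-state SD and 16 did not, and none of the 40 turned sign. The filter on dim genes and the brightest probe set changed no call. Neither could change a member's own values, since each member has 1 probe set and all 10 lay above background on every array. Only the other genes in the fit could differ, so these alternatives were no check on the members' changes.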
